A study of Mus musculus with 12 samples.

Results

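The 10 genes described here, Asb2, Asb5, Asb8, Asb10, Asb11, Asb12, Asb14, Asb15, Asb16 and Asb18, encode ankyrin repeat and SOCS box (ASB) proteins, the substrate adaptors of a family of ubiquitin ligases. They were taken by symbol from the deposited expression tables of mouse gastrocnemius and soleus, and all 10 had a row among the 34866 gene IDs of each table, which hold 18 Asb genes in all. RNA came from muscles of 4-week-old male mice on a C57BL/6 background. Control (Ctrl) mice were Phf2 flox/flox;Acta1 Cre- and knockout (KO) mice were Phf2 flox/flox;Acta1 Cre+, so both genotypes carried floxed Phf2 alleles and differed in Cre. Each muscle and genotype had 3 libraries, 12 in total. The study asked what PHF2, a Jumonji-family protein that acts on lysine methylation of histones, does in skeletal muscle. Acta1 is the skeletal muscle actin gene and its promoter drives Cre in muscle fibres, so Phf2 stays intact in the other cells of the muscle. The comparisons of KO with Ctrl and of soleus with gastrocnemius were known when the 10 genes were chosen: they were selected on TPM values that include these contrasts, and are therefore described there without a test.

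An ASB protein binds its substrate through ankyrin repeats and binds elongin B and elongin C through its carboxy-terminal SOCS box, which joins it to cullin-5 and the RING protein Rnf7. The assembled ligase is switched on by attachment of NEDD8 to the cullin and switched off by the COP9 signalosome. Asb2 is the best known of the family in muscle, where its protein targets filamins and desmin for degradation and limits muscle mass. Asb5 was first described in growing arteries of the rabbit. The zebrafish counterpart of Asb11 has been studied in progenitor cells, and Asb15 in the growth and differentiation of cultured mouse myoblasts.

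Several features of the libraries moved with genotype and stand before the results. Phf2 ranged from 8.24 to 11.4 TPM (transcript abundance corrected for length and scaled to the same total in every library) in gastrocnemius Ctrl and from 6.74 to 7.61 in KO, and from 10.002 to 14.98 in soleus Ctrl and from 6.79 to 9.06 in KO. The groups did not overlap in either muscle (exact two-sided permutation test, p = 0.1 each, the smallest that 3 against 3 libraries can give). The number of genes above 0 was 18291 to 18699 in gastrocnemius Ctrl and 19676 to 20175 in KO, and the share of mitochondrially encoded transcripts was 22.0 to 24.1% against 18.1 to 20.7%. Each gene's log2 deviation from its mean over a muscle's 6 libraries was regressed on the GC fraction of its transcripts, with their length as a second term, and the slope was negative in all 3 gastrocnemius Ctrl libraries (-1.30 to -0.56) and positive in all 3 KO libraries (0.58 to 1.16). Because the mean is over the same libraries, the slopes of a muscle balance out. A strong slope in a library thus pushes the others the opposite way, and the signs are relative. Soleus KO 3 stood apart, with 39.0% mitochondrially encoded transcripts and a GC slope of -2.89 against 0.24 to 1.02 in the other 5 soleus libraries. Its summed level of 5 muscle fibre markers was 42830 TPM, against 53547 to 59894 in the other soleus libraries, so the soleus differences of the 10 genes are also given without it. The 5 slow fibre markers summed to 13101 to 27851 TPM in soleus and 274 to 732 TPM in gastrocnemius, and none of the fibre markers was at 0. The scaling to TPM removes sequencing depth, which is therefore unknown for all 12 libraries.

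The sequence just upstream of a gene's transcript start is where a promoter's core elements lie, and the 100 bases before the RefSeq start are shown for the genes with a match to the binding motif of the muscle factor MEF2 and, as a contrast, for Asb10, which had none. The sequences are read 5′ to 3′ from RefSeq on GRCm38.p6, the assembly known as mm10, and capitals mark the MEF2 match.
Asb14, chr14:26894514-26894613, plus strand: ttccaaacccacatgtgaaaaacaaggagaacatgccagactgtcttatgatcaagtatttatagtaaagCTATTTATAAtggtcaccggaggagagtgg
Asb18, chr1:90014667-90014766, minus strand: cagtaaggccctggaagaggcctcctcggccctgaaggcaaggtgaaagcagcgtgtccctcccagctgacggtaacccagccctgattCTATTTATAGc
Asb16, chr11:102268651-102268750, plus strand: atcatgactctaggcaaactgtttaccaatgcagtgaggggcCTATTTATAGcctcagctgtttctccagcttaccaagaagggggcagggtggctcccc
Asb12, chrX:95478130-95478229, minus strand: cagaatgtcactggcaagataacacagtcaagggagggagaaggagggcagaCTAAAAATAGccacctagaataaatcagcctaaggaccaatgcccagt
Asb5 second start, chr8:54571339-54571438, plus strand: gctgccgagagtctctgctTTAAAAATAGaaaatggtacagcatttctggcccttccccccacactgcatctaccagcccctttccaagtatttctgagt
Asb10, chr5:24540979-24541078, minus strand: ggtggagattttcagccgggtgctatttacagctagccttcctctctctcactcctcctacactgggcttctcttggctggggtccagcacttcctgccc
In Asb14 the match lay 30 to 21 bases before the RefSeq start, in Asb18 at 11 to 2 bases, in Asb16 at 58 to 49, in Asb12 at 48 to 39 and at the second of 3 Asb5 starts at 81 to 72 bases before it. In Asb14, Asb16 and Asb18 the match overlapped TATAAA, the letters of a TATA box, on the strand opposite to the one shown. In the printed sequences it therefore reads TTTATA. The GENCODE annotation places the start of Asb14 at position 26894557 of chromosome 14, upstream of its match. It places the start of Asb12 at 95557987 of chromosome X and that of Asb5 at 54529580 of chromosome 8. Both lie far upstream of the sequences shown, which are inside these annotated genes.

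The 10 genes had 14 RefSeq windows of 300 bases (250 before and 50 after a start), in which 5 motifs were searched on both strands. The motifs were chosen after the sequences had been seen. The MEF2 motif was found in 5 of the 14 windows and in 3.19% of all 32851 windows of that length. The CArG box, bound by serum response factor, was found in 2 windows (Asb2 second start, Asb5 first start) and in 1.63% of all windows. CAGCTG, an E-box of myogenic factors, was in 4 windows (Asb2, Asb5, Asb16, Asb18) against 16.3%, CATTCC, the core of an MCAT element, in 2 (Asb8, Asb10) against 14.7%, and TATAAA in 5 (Asb5, Asb14, Asb15, Asb16, Asb18, counted once for each window) against 13.6%. These are matches of letters, and binding was not measured.

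**Figure D1:**
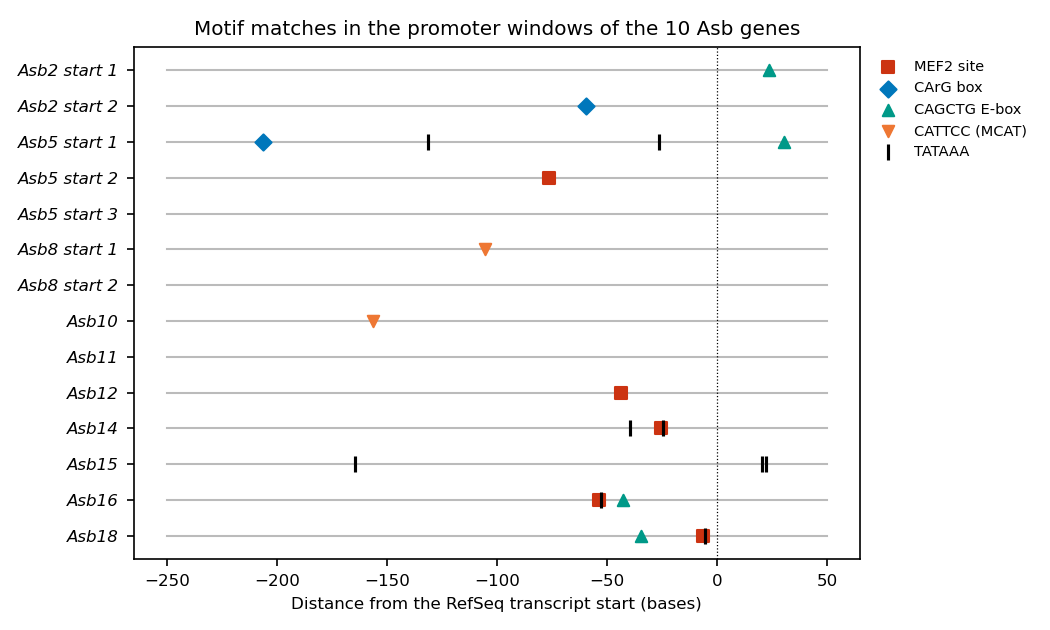
Positions of 5 motifs in the 14 RefSeq promoter windows of the 10 Asb genes. The horizontal axis is the distance in bases from the RefSeq transcript start (dotted line), each row is 1 window, and each symbol is 1 match on either strand; MEF2 matches appear in 5 rows, within 81 bases before the start.

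In control gastrocnemius, the levels of the 10 genes ranged from 9.66 TPM for Asb15 to 195 TPM for Asb2. From the highest, the order of means was Asb2, Asb5, Asb14, Asb8, Asb11, Asb16, Asb12, Asb10, Asb18 and Asb15. The libraries of 3 neighbouring pairs in this order overlapped (Asb8 with Asb11, Asb16 with Asb12, and Asb18 with Asb15), and the other neighbours were apart in every library. Asb2 ranked 422nd among all genes by mean TPM and Asb15 ranked 5543rd. In KO gastrocnemius the order changed most for Asb14, which went from rank 3 to rank 7, and 6 neighbouring pairs overlapped.

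In control soleus, Asb5 led with 341 ± 106 TPM (SD, n = 3) and ranked 312th of all genes, followed by Asb2, Asb11, Asb8, Asb14, Asb10, Asb12, Asb16, Asb18 and Asb15. Only Asb18 and Asb15 overlapped as neighbours there. In KO soleus the order was Asb5, Asb2, Asb8, Asb11, Asb12, Asb14, Asb10, Asb16, Asb15 and Asb18, with 4 overlapping pairs (Asb8 with Asb11, Asb12 with Asb14, Asb14 with Asb10, and Asb10 with Asb16). Asb5 and Asb2 made up 38.9% and 21.5% of the summed TPM of the 10 genes in control soleus, against 21.2% and 26.5% in control gastrocnemius.

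**Figure D2:**
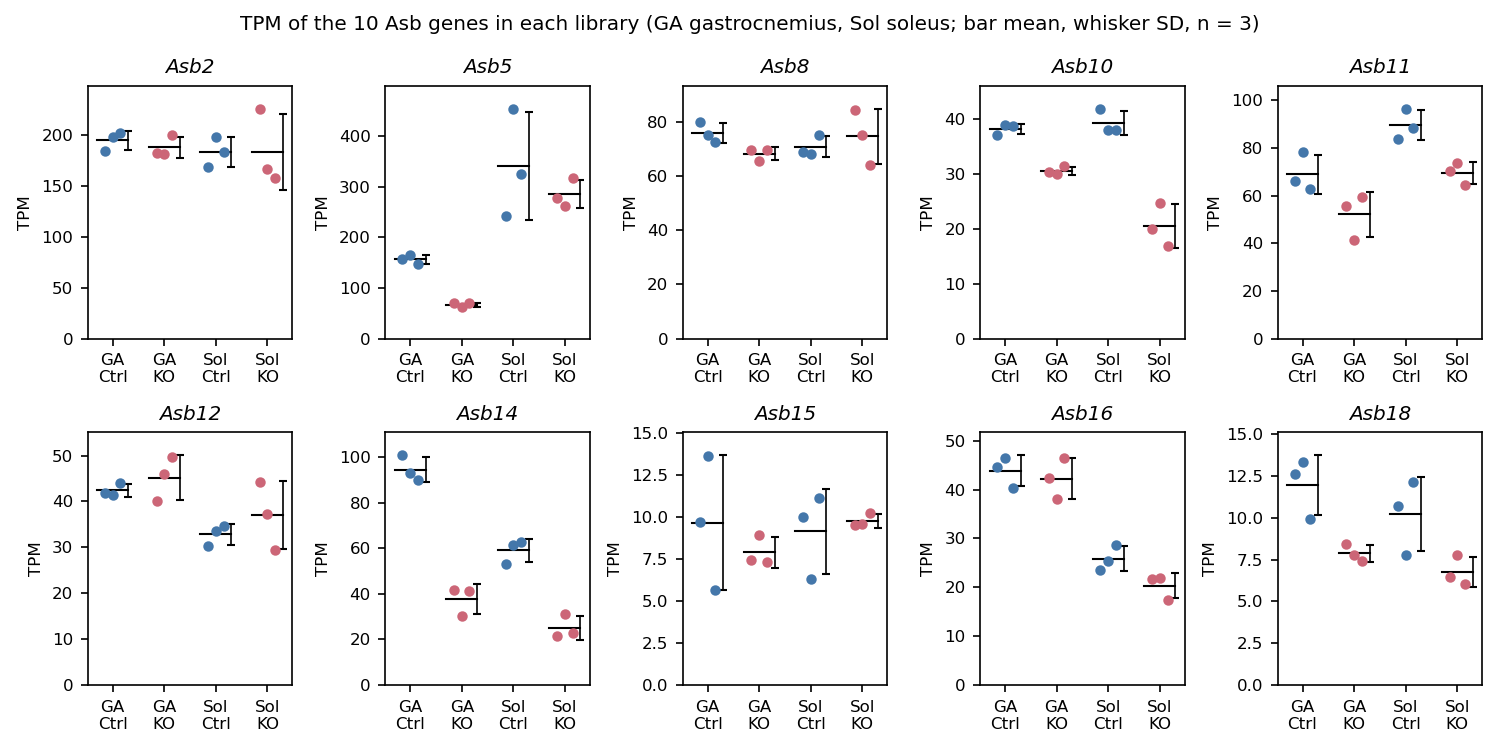
TPM of each of the 10 Asb genes in the 12 libraries, 1 panel a gene, with gastrocnemius (GA) and soleus (Sol) by genotype. Points are libraries, bars are means and whiskers SD (n = 3); Asb14 is lower in every KO library of both muscles, and Asb5 is lower in every KO library of gastrocnemius.

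Between genotypes, 4 genes (Asb10, Asb11, Asb14 and Asb18) had every KO library below every Ctrl library in both muscles. Asb5 and Asb8 were separated in gastrocnemius and overlapped in soleus, Asb16 was separated in soleus and overlapped in gastrocnemius, and Asb2, Asb12 and Asb15 overlapped in both. No gene had all KO libraries above all Ctrl libraries, beside 22.2% of genes in gastrocnemius and 8.9% in soleus. In gastrocnemius 6 of the 10 genes were separated with KO lower, beside 15.5% of the 11911 genes tested, and in soleus 5 of 10, beside 7.94% of 12148. Because the choice of the genes used these comparisons, nothing is read from those counts. The 10 genes had a median KO minus Ctrl difference of -0.25 in gastrocnemius and -0.27 in soleus on the log2(TPM + 1) scale, beside 0.03 and -0.02 for all genes tested. In whole muscle, fewer cells of a type and less RNA per cell cannot be told apart.

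Asb14, at position 26894557 to 26915258 on the plus strand of chromosome 14, had the widest log2 difference of the 10 genes in both muscles as reported; in TPM that of Asb5 was wider in both, and with correction for GC content and transcript length Asb5 and Asb14 were nearly level in gastrocnemius. It measured 101, 92.8 and 90.0 TPM in the gastrocnemius Ctrl libraries and 41.7, 30.2 and 41.1 TPM in KO. Every KO library was below 42 TPM and every Ctrl library at or above 90, so the groups were far apart. The KO mean was 37.7 ± 6.50 TPM (SD, n = 3), 39.9% of the Ctrl mean of 94.5 ± 5.51, a log2 difference of -1.32 (SE 0.128). In soleus it measured 53.2, 61.4 and 62.6 TPM in Ctrl and 21.3, 31.1 and 22.9 in KO. The soleus groups were also apart, at 42.4% of the Ctrl mean and a log2 difference of -1.22 (SE 0.163). Without soleus KO 3 the difference was -1.16, and with correction for GC content and transcript length it was -1.29 in gastrocnemius and -1.25 in soleus.

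Asb5, at 54529580 to 54587842 on the plus strand of chromosome 8, measured 157, 165 and 147 TPM in gastrocnemius Ctrl and 69.3, 62.5 and 69.7 TPM in KO. All 3 KO libraries lay near one level, well below the lowest Ctrl library. The KO mean was 42.9% of the Ctrl mean (log2 difference -1.21, SE 0.0732; -1.30 with the GC and length correction). In soleus its values were 243, 454 and 326 TPM in Ctrl and 278, 262 and 318 TPM in KO. The Ctrl libraries were widely spread and the KO libraries lay inside their range, with a log2 difference of -0.21 (SE 0.226). That soleus difference was -0.43 without Ctrl 1, 0.02 without Ctrl 2 and -0.29 without KO 3, and the difference between the muscles in the KO effect was not tested. Asb5 shares its locus with Spcs3 on the opposite strand, a signal peptidase subunit, which was at 11.1 ± 0.491 TPM in gastrocnemius Ctrl and 10.6 ± 0.199 in KO (SD, n = 3), and at 11.9 ± 0.860 and 15.3 ± 1.37 TPM in soleus. Libraries were made with a kit that keeps strand, and whether the counting used strand is not given in the sources used here.

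Asb10 was lower in KO in both muscles, with a lower share of the Ctrl level kept in soleus than in gastrocnemius; whether the muscles differ in this was not tested. In gastrocnemius it measured 37.1, 38.8 and 38.6 TPM in Ctrl and 30.3, 29.9 and 31.4 in KO, with small spread in both groups. The KO mean was 80.0% of Ctrl there, a log2 difference of -0.31 (SE 0.0604; -0.49 with the GC and length correction). In soleus it measured 41.8, 37.9 and 38.0 TPM in Ctrl and 19.9, 24.7 and 16.9 in KO. All KO libraries were below the lowest Ctrl library, at 52.2% of the Ctrl mean and a log2 difference of -0.92 (SE 0.152). Without soleus KO 3, which held the lowest value, the difference was -0.79.

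Asb18 and Asb11 were lower in both muscles. Asb18 measured 12.6, 13.3 and 9.92 TPM in gastrocnemius Ctrl and 8.41, 7.79 and 7.43 in KO. The groups were apart, at a KO mean of 65.9% of Ctrl and a log2 difference of -0.54 (SE 0.116). In soleus Asb18 measured 10.7, 7.80 and 12.2 TPM in Ctrl and 6.45, 7.75 and 6.06 in KO. Ctrl 2 was barely above KO 2, so this separation rests on a gap of less than 0.1 TPM. The soleus KO mean was 66.1% of Ctrl (log2 difference -0.52, SE 0.173; -0.45 without KO 3).

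Asb11 measured 65.9, 78.1 and 62.6 TPM in gastrocnemius Ctrl and 55.5, 41.4 and 59.4 in KO. The lowest Ctrl and the highest KO library lay close together, and the KO mean was 75.7% of Ctrl (log2 difference -0.41, SE 0.148; -0.25 without KO 2). In soleus it measured 83.9, 96.3 and 88.5 TPM in Ctrl and 70.4, 73.8 and 64.4 in KO. Here the groups were well apart, at 77.6% of Ctrl and a log2 difference of -0.36 (SE 0.117; -0.31 without KO 3).

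Asb8 and Asb16 were each separated in 1 muscle. Asb8 measured 79.9, 75.3 and 72.7 TPM in gastrocnemius Ctrl and 69.7, 65.4 and 69.5 in KO. The KO libraries lay just below the Ctrl libraries, at 89.8% of the mean and a log2 difference of -0.15 (SE 0.0646; -0.28 with the GC and length correction). In soleus its Ctrl values were 69.0, 68.2 and 75.2 TPM and its KO values 84.5, 75.4 and 64.2, with KO 3 below all Ctrl libraries and KO 1 and KO 2 above them (log2 difference 0.07, SE 0.134; 0.17 without KO 3). Asb16 measured 23.6, 25.3 and 28.6 TPM in soleus Ctrl and 21.7, 22.0 and 17.3 in KO. KO 3 was the lowest, the KO mean was 78.7% of Ctrl (log2 difference -0.33, SE 0.137), and without KO 3 the difference was -0.23. In gastrocnemius Asb16 measured 44.5, 46.5 and 40.3 TPM in Ctrl and 42.3, 38.0 and 46.4 in KO, and the groups overlapped.

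Asb2, Asb12 and Asb15 overlapped between genotypes in both muscles. Asb2, the adaptor for filamins, measured 185, 198 and 202 TPM in gastrocnemius Ctrl and 183, 182 and 200 in KO. In soleus it measured 169, 199 and 184 TPM in Ctrl and 226, 167 and 158 in KO, with KO 1 above all and KO 2 and KO 3 below all Ctrl libraries. Its log2 differences were -0.05 (SE 0.0677; -0.21 with the GC and length correction) in gastrocnemius and -0.02 (SE 0.164) in soleus, where it was 0.08 without KO 3. Asb12 had means of 42.4 ± 1.44 and 45.2 ± 4.84 TPM in gastrocnemius Ctrl and KO and of 32.8 ± 2.19 and 37.0 ± 7.39 in soleus (SD, n = 3), where its log2 difference was 0.15, and 0.30 without KO 3. Asb15, the lowest of the 10 in both control muscles, measured 9.72, 13.6 and 5.63 TPM in gastrocnemius Ctrl and 7.45, 8.94 and 7.29 in KO. In soleus the Asb15 Ctrl values of 9.998, 6.29 and 11.1 TPM spanned the KO values of 9.51, 9.57 and 10.2, with a log2 difference of 0.12, and 0.09 without KO 3.

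**Figure D3:**
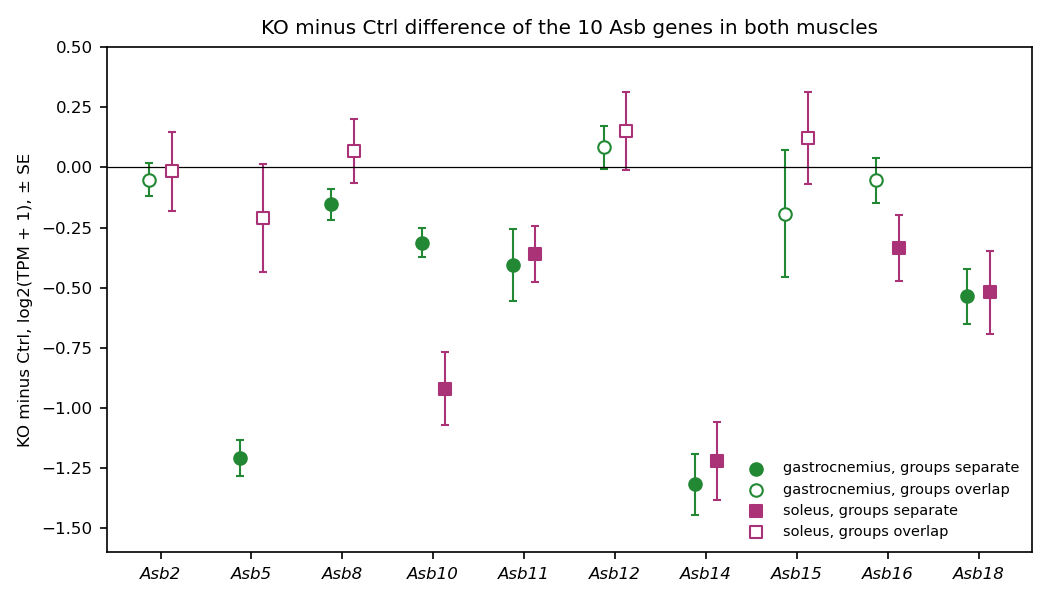
KO minus Ctrl difference of each of the 10 Asb genes on the log2(TPM + 1) scale with its SE, in gastrocnemius and soleus. Filled points have no overlap between genotypes and open points overlap; Asb14 is at -1.32 and -1.22, and Asb5 is at -1.21 in gastrocnemius and -0.21 in soleus.

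The 2 largest differences in TPM accounted for most of the difference in the summed level of the 10 genes. The summed level came to 737 ± 25.2 TPM in gastrocnemius Ctrl libraries and 547 ± 35.1 in KO (SD, n = 3), with ranges of 713 to 763 and 512 to 582 TPM that did not overlap. Asb5 and Asb14 together made up 146 of the 190 TPM between those means, or 76.98%. In soleus the sum was 861 ± 128 TPM in Ctrl and 733 ± 42.1 in KO, and the ranges of 734 to 989 and 707 to 782 TPM overlapped. The 5 fast fibre markers summed to 71227 to 80228 TPM in gastrocnemius Ctrl and 91647 to 95097 in KO, and the 3 smooth muscle markers to 94.7 to 118 and 125 to 173 TPM; no marker of either list was at 0, and their part in these differences was not tested. Of the other lists, the fibre markers were also apart in gastrocnemius (75794 to 78301 TPM in Ctrl, 70957 to 75307 in KO), as were the 4 endothelial markers in soleus (160 to 184 and 143 to 158 TPM). Not every marker followed its sum. Des, a fibre marker, was higher in every KO library of gastrocnemius (1049 to 1325 TPM, against 891 to 945 in Ctrl). Acta1, Actn3 and Tagln overlapped between genotypes there, and Kdr and Tek overlapped in soleus. The other markers of these lists were apart in the direction of their sum.

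Levels in soleus and gastrocnemius were deposited in separate tables, so they were compared as levels without a test. In the Ctrl libraries Asb5 and Asb11 were higher in every soleus library than in every gastrocnemius library, 2 of 10 genes beside 39.8% of 12091 genes. Asb12, Asb14 and Asb16 were lower in every soleus library, 3 of 10 beside 14.4%, and the other 5 overlapped. The Asb5 mean was 2.18 times as high in soleus as in gastrocnemius in Ctrl and 4.26 times as high in KO. Asb14 in soleus was at 62.5% of its gastrocnemius level in Ctrl and 66.6% in KO, and Asb16 at 59.0% and 48.2%.

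In the KO libraries, Asb5, Asb11 and Asb15 were higher in every soleus library (3 of 10, beside 34.5% of genes), and Asb10 and Asb16 were lower (2 of 10, beside 13.4%). Asb10 had like levels in the control muscles, at a soleus minus gastrocnemius log2 difference of 0.04, and differed by -0.57 in KO, at 67.1% of its gastrocnemius level. Asb2, Asb8 and Asb18 overlapped between the muscles in both genotypes.

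**Figure D4:**
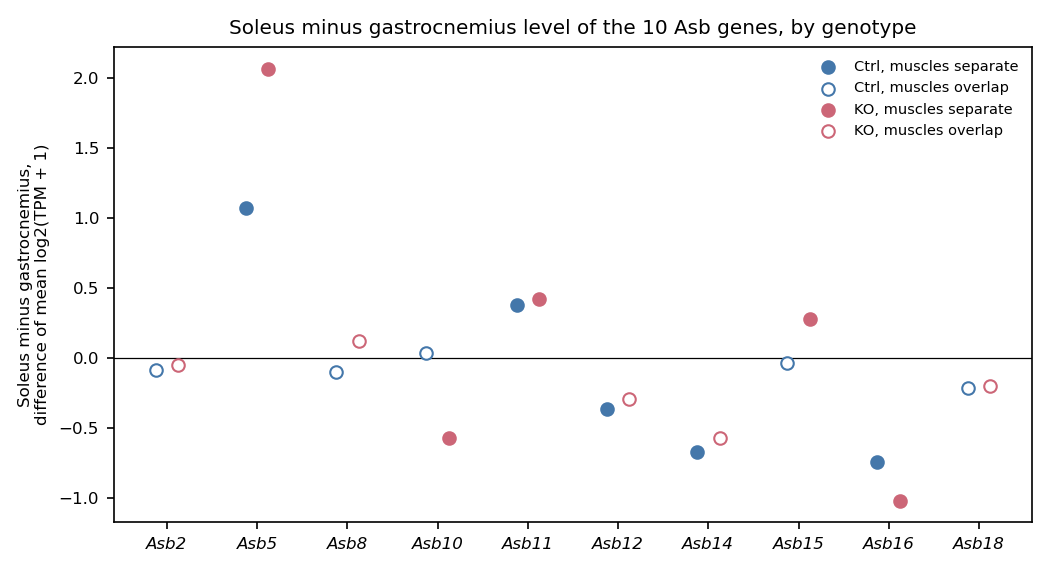
Soleus minus gastrocnemius difference of group means for each of the 10 Asb genes on the log2(TPM + 1) scale, by genotype. Filled points have no overlap between muscles and open points overlap; Asb5 is at 1.07 in Ctrl and 2.07 in KO, and Asb16 at -0.74 and -1.02.

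Within groups, pairs of the 10 genes ranged from varying together to varying in opposite directions. Deviations of log2(TPM + 1) from the group mean gave 45 pairs over 12 libraries, of which 32 had a positive Pearson r, with a median of 0.262. Asb2 and Asb12 had the highest r, 0.823 (0.755 over 11 libraries, without soleus KO 3), followed by Asb8 with Asb16 at 0.792 (0.607) and Asb15 with Asb18 at 0.782 (0.839). Asb5 and Asb18 had the lowest, -0.502 (-0.460 without soleus KO 3). Without that library the lowest was Asb2 with Asb10, at -0.759 against 0.00957 over 12 libraries. The points share libraries and the TPM scaling, and these values are a description.

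The genes whose level was most like that of Asb14 over the 12 libraries, among 12091 genes, were Pkia at r = 0.983, Rasgrp3 at 0.977 and Tstd3 at 0.976. Group means were not removed for this r, so it includes the genotype and muscle differences known when Asb14 was chosen. Lower KO means in the genes picked by it are therefore not separate information, and the values are a description. Pkia encodes an inhibitor of protein kinase A and averaged 269 ± 21.1 and 145 ± 24.0 TPM in gastrocnemius Ctrl and KO and 186 ± 20.8 and 105 ± 14.7 in soleus (SD, n = 3). Rasgrp3, a Ras exchange factor, averaged 15.2 ± 0.652 and 8.68 ± 0.555 TPM in gastrocnemius and 10.5 ± 0.0827 and 6.84 ± 0.591 in soleus. Tstd3 averaged 13.1 ± 0.606 and 9.81 ± 0.377 TPM in gastrocnemius and 11.7 ± 0.215 and 8.72 ± 0.666 in soleus.

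The 8 other Asb genes of the tables summed to 25.9 ± 0.0786 TPM in gastrocnemius Ctrl libraries and 23.6 ± 1.12 in KO (SD, n = 3), and 24.0 ± 1.51 and 23.1 ± 3.12 in soleus, and single libraries of Asb1, Asb6 and Asb13 reached the levels of Asb15 or Asb18. Of the 8, 6 passed the mean of 1 TPM and none was called at an adjusted p under 0.05 in limma, with 2 in gastrocnemius and 0 in soleus at an unadjusted p under 0.05. In gastrocnemius Asb6 measured 5.16, 4.79 and 5.03 TPM in Ctrl and 5.80, 6.37 and 6.02 in KO (adjusted p = 0.0855), and Asb7 averaged 2.98 ± 0.142 and 2.33 ± 0.233 TPM (adjusted p = 0.108). The gastrocnemius adjusted p-values of Asb1, Asb3, Asb4 and Asb13 were 0.277, 0.196, 0.224 and 0.182. In soleus Asb13 had the smallest p of these genes, with 4.91 ± 0.288 TPM in Ctrl and 4.19 ± 0.605 in KO (adjusted p = 0.673). Asb9, the nearest neighbour of Asb11 on the side of higher coordinates, was listed at 0 in all 6 Ctrl libraries, and at 0.12, 0.03 and 0.03 TPM in gastrocnemius KO and 0.16, 0.14 and 0.18 TPM in soleus KO. Asb17 did not exceed 0.18 TPM.

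The ligase into which ASB proteins assemble was examined through 7 lists of genes, and the nearest protein-coding neighbours of the 10 genes formed an 8th. The lists were chosen with earlier results of these data known, so their shares of called genes are a description. In gastrocnemius 15 of the 92 genes tested in the 8 lists were called by limma, 8 higher and 7 lower in KO, beside 14.3% of all 11911 genes (9.32% higher and 4.99% lower). The number of libraries limits these calls: only Trim54 was called without each of the 6 libraries in turn, and 1, 2, 9, 8, 1 and 5 of the 15 stayed called without Ctrl 1, Ctrl 2, Ctrl 3, KO 1, KO 2 and KO 3. With the GC and length correction, 5 of the 15 stayed called (Dcun1d2, Cops8, Trim54, Otub2 and Lmod2). In a limma fit of all 12 libraries 5 of the 15 stayed called (Dcun1d2, Spsb2, Jak2, Otub2 and Lmod2), and Trim54 did not (adjusted p = 0.1995). Over all genes 1110 were called higher and 594 lower, whereas median-ratio scaling gave 872 of each and rescaling over protein-coding nuclear genes 703 and 917. In soleus limma called 0 of 92 list genes, with 6 at an unadjusted p under 0.05, beside 0.0741% of all 12148 genes, and 0 without soleus KO 3, with 9 unadjusted. Nothing in the labels states that the libraries of a group came from separate mice, and the p-values then reflect the spread between these libraries alone, which may be technical.

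Of the list of the cullin-5 core and its activators, which also holds Cul2, Rbx1, Ube2m and Cand1, 18 genes were tested in gastrocnemius. Of these 3 were called, all lower in KO. Cul5, the scaffold, fell from 19.3 ± 0.591 to 15.3 ± 0.867 TPM (SD, n = 3; log2 difference -0.32, SE 0.0715, limma adjusted p = 0.0289). Eloc, elongin C, fell from 161 ± 10.5 to 127 ± 4.43 TPM (-0.33, adjusted p = 0.0245), and Dcun1d2, which promotes attachment of NEDD8 to cullins, from 40.6 ± 2.59 to 30.1 ± 3.06 TPM (-0.42, adjusted p = 0.0277). With the GC and length correction Cul5 was at -0.16 (adjusted p = 0.184) and Eloc at -0.22 (adjusted p = 0.0600). Elob, elongin B, averaged 358 ± 27.3 and 294 ± 30.5 TPM (adjusted p = 0.0862), and was called lower with quantile normalization (adjusted p = 0.0285), without mitochondrially encoded genes (0.0372), over protein-coding nuclear genes (0.0302) and with the GC and length correction (0.0215). Rnf7, the RING subunit, averaged 83.9 ± 5.23 and 97.7 ± 1.43 TPM (adjusted p = 0.0682). The list's median was -0.15 beside 0.03 for all genes. In soleus the median was 0.07 and no gene of the list was called; Dcun1d1 had the smallest p, at 18.4 ± 2.80 TPM in Ctrl and 27.3 ± 4.67 in KO (adjusted p = 0.387), and Cul5, Eloc, Rnf7 and Elob had adjusted p-values of 0.874, 0.683, 0.683 and 0.934.

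Of 10 genes of the COP9 signalosome, which removes NEDD8, Cops3 and Cops8 fell and Cops6 rose in gastrocnemius KO, and the list's median was -0.06. Cops3 went from 71.8 ± 0.899 to 57.2 ± 4.12 TPM (SD, n = 3; limma adjusted p = 0.0258), Cops8 from 59.6 ± 2.69 to 49.2 ± 2.39 (adjusted p = 0.0401) and Cops6 from 78.3 ± 5.45 to 95.1 ± 2.25 TPM (adjusted p = 0.0401). Among 19 other SOCS box genes, Spsb2 rose from 4.59 ± 0.542 to 7.69 ± 0.920 TPM (adjusted p = 0.0160) and Neurl2, also called Ozz and a muscle adaptor, from 32.8 ± 1.095 to 41.5 ± 2.96 TPM (adjusted p = 0.0301). The median of that list was 0.11. With the GC and length correction Neurl2 was at 0.13 (adjusted p = 0.209) against 0.33 as reported, and Cops3, Cops6 and Spsb2 were not called. Cops6 was also not called under any of the 4 other scalings, and Neurl2 not with quantile normalization or over protein-coding nuclear genes. In soleus the smallest p-values of these lists were those of Cops5 (adjusted p = 0.732) and Socs2, at 9.13 ± 1.24 TPM in Ctrl and 6.71 ± 0.485 in KO (adjusted p = 0.413).

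Of 11 genes whose proteins have been reported as targets of ASB ligases, 2 rose and 1 fell in gastrocnemius KO, and the median was 0.29. Flnc, filamin C, rose from 82.2 ± 4.80 to 111 ± 13.2 TPM (SD, n = 3; log2 difference 0.42, limma adjusted p = 0.0341), and Des, desmin, from 919 ± 27.2 to 1179 ± 139 TPM (0.35, adjusted p = 0.0435). Filamins and desmin are reported targets of ASB2, whose own gene Asb2 overlapped between genotypes. Jak2, a cytokine receptor kinase, fell from 14.6 ± 0.398 to 10.9 ± 0.5002 TPM (-0.39, adjusted p = 0.0153). Flnc and Des were not called under any of the 4 other scalings, nor with the GC and length correction (0.32 and 0.22, adjusted p = 0.0819 and 0.192), which also left Jak2 uncalled (-0.27, adjusted p = 0.0549). These are transcript levels, and protein was not measured. In soleus Sh2b2 had the smallest p of the list (2.08 ± 0.450 and 3.00 ± 0.770 TPM, adjusted p = 0.616).

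Of 9 kelch-like adaptors, which serve cullin-3 ligases, Kbtbd12 fell in gastrocnemius KO from 11.9 ± 0.708 to 8.63 ± 1.06 TPM (SD, n = 3; limma adjusted p = 0.0337, and 0.0873 with the GC and length correction), and the list's median was -0.15. In soleus the median of these 9 was -0.40, and Klhl31 had the smallest p, with 41.3, 50.7 and 49.2 TPM in Ctrl and 35.2, 35.4 and 33.5 in KO (adjusted p = 0.343). Of 11 ligases linked to muscle atrophy, Trim54, a RING protein of the sarcomere, rose in gastrocnemius KO from 204 ± 4.50 to 314 ± 11.0 TPM (log2 difference 0.62, SE 0.0565, adjusted p = 0.00358), and the list's median was -0.01. In soleus Fbxo30 had the smallest p of that list, at 7.42 ± 0.385 and 8.76 ± 0.0613 TPM (adjusted p = 0.597).

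The 20 neighbours nearest to the 10 genes included 8 tested in gastrocnemius, of which 2 rose in KO. Otub2, a deubiquitinase 32680 bases from Asb2, rose from 3.01 ± 0.187 to 4.71 ± 0.486 TPM (SD, n = 3; log2 difference 0.51, limma adjusted p = 0.0186), and Lmod2, leiomodin 2, 24597 bases from Asb15, rose from 71.8 ± 13.1 to 134 ± 31.7 TPM (0.88, adjusted p = 0.0319). Asb2 and Asb15 themselves overlapped between genotypes. The other 6 were not called, and neither was any of the 9 tested in soleus, where Appl1 had the smallest p. Appl1, 3729 bases from Asb14, was at 6.08 ± 0.892 TPM in soleus Ctrl and 6.89 ± 0.655 in KO (adjusted p = 0.736).

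**Figure D5:**
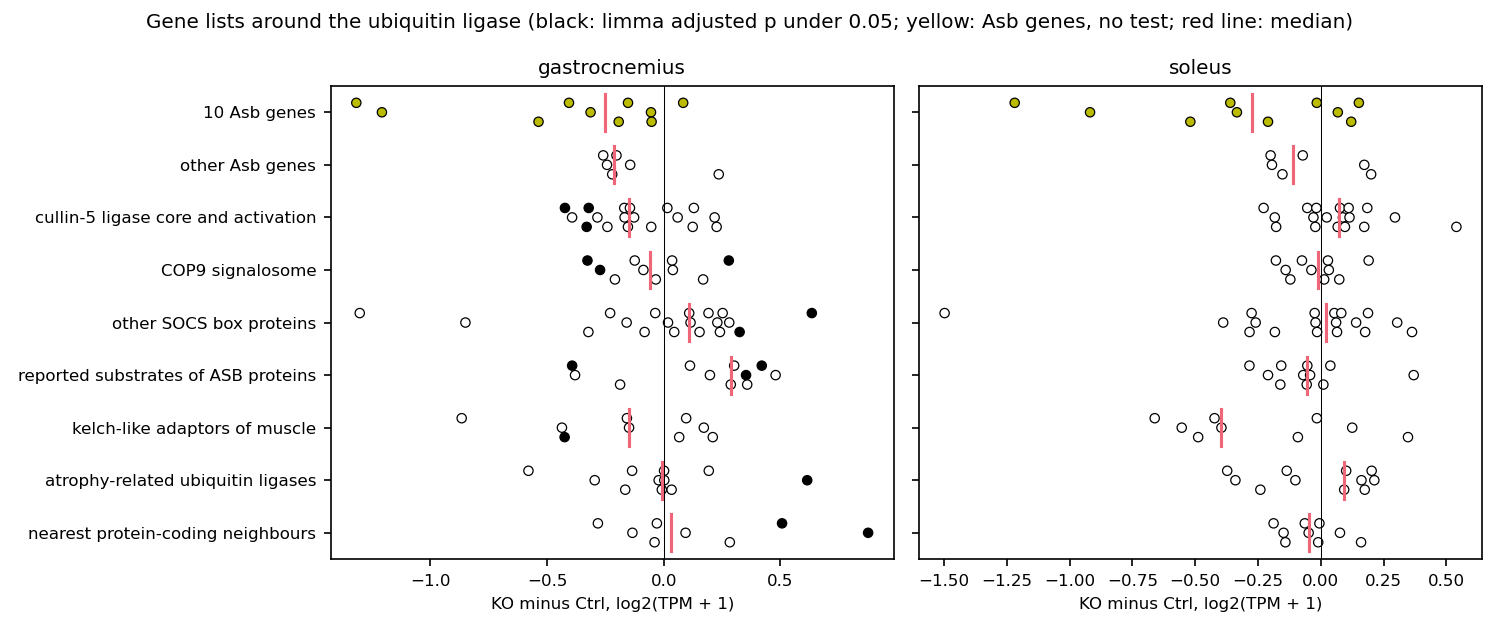
KO minus Ctrl log2 difference of the 10 Asb genes and of the genes tested in each of the 8 lists, for gastrocnemius and soleus. Each point is a gene, red lines are medians, black points are called by limma (adjusted p under 0.05) and yellow points are the 10 Asb genes, which were not tested; 15 black points are in gastrocnemius and none in soleus.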

How the data were processed

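Expression was measured by RNA sequencing in gastrocnemius and soleus, 3 libraries for each genotype. The values are TPM computed by the authors and deposited in 1 table for each muscle. Per the labels' protocols, RNAiso and a NucleoSpin kit gave the RNA, and libraries were directional (NEBNext Ultra II). Per the submitters' processing notes the build was mm10; which aligner, quantifier and annotation made the TPM is not given in the sources used here. Depth, and with it the precision of low values, is unknown.

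Of 34866 gene IDs, 34652 matched GENCODE M21 and 214 did not. For each muscle, genes averaging 1 TPM or more over its libraries were fitted on log2(TPM + 1) with limma 3.58.1 in R 4.3.3 (group means, mean-variance trend, two-sided, Benjamini-Hochberg adjustment over all genes, called at an adjusted p under 0.05). Fold changes on this scale understate low genes. The limma fit was tested on simulated data with independent normal noise for each gene. That simulation held no GC shift between genotypes and no outlying library, so it does not cover these features of the data. Members, lists and the rule for named genes (all 18 Asb genes, the 4 ligase core genes, up to 4 called genes of smallest p per list, called neighbours, the 3 genes most like Asb14) were chosen with earlier results of these data known. Alternatives were pseudocounts, filters, scalings, a GC and length correction (lowess span 0.3), the replicate block, a fit of all 12 libraries and leaving out each library.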

Additional observations from a re-analysis of the deposited data

Results flagged for a closer look

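Nae1, a subunit of the enzyme that activates NEDD8 for attachment to cullins, differed in opposite directions in the 2 muscles, with no overlap between genotypes in either. In soleus it measured 18.1, 19.4 and 20.8 TPM in Ctrl and 22.3, 21.3 and 29.2 in KO, a log2 difference of 0.30 (SE 0.145, limma adjusted p = 0.609). In gastrocnemius it measured 17.7, 24.2 and 19.8 TPM in Ctrl and 15.5, 13.7 and 17.0 in KO, a log2 difference of -0.39 (limma adjusted p = 0.0840). The difference between the muscles was 0.69 (SE 0.200) with an unadjusted p of 0.00522 and an adjusted p of 0.122 in a limma fit of all 12 libraries, so it missed the threshold after adjustment over 12091 genes, of which 33 were called. KO 3, the soleus library that stood apart, held the highest Nae1 value there, and KO 2 was barely above Ctrl 3 (21.3 against 20.8 TPM). The soleus difference without KO 3 is not given for Nae1.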

How the results depend on the processing

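Over 17 alternatives in each muscle, Asb14 ranged from -1.40 to -1.17 in gastrocnemius and from -1.38 to -1.11 in soleus, Asb5 in gastrocnemius from -1.31 to -1.16, and Asb10 in soleus from -1.06 to -0.77. Of 170 values, 155 moved by less than the spread between replicates in gastrocnemius and 169 in soleus. The filters, the replicate block and the fit of all 12 libraries leave a difference of group means unchanged. Their values equalled the reported ones by design and are counted among the 155 and 169. Of 90 values of the control soleus minus gastrocnemius difference, 13 moved by more: median-ratio scaling turned Asb10 from 0.04 to -0.16 and over protein-coding nuclear genes Asb2 turned from -0.09 to 0.01. Asb11 was at 0.17 with median-ratio scaling against 0.38. Within a muscle, replicate numbers did not show a pairing of Ctrl with KO libraries (correlations of same-numbered libraries were -0.16 to 0.03 in gastrocnemius and -0.37 to -0.19 in soleus). Libraries of equal number in gastrocnemius and soleus were not compared in this way, so pairing between the muscles was not tested.

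Counts of calls depended more on the processing. In gastrocnemius, 1704 genes were called, against 1113 without the filter, 722 with the replicate block, 524 in a fit of all 12 libraries and 547 to 1596 with a library left out. Of list genes 15 were called, against 8 without the filter, 8 with the GC and length correction, 3 with the replicate block, 5 with all 12 libraries and 1 to 10 with a library left out. In soleus, 9 genes were called by limma (1102 at an unadjusted p under 0.05), against 0 without the filter (1738 unadjusted), 5 with the filter at 5 TPM, 16 without mitochondrially encoded genes, 26 over protein-coding nuclear genes, 0 with the replicate block (727 unadjusted), 98 with all 12 libraries, and 0 to 11 with a library left out. The soleus difference of Elob (-0.05) was 0.021 with quantile normalization, 0.033 without mitochondrially encoded genes, 0.049 over protein-coding nuclear genes, 0.096 with the GC and length correction, and -0.19 to 0.085 with a library left out (above 0 without Ctrl 2 or KO 2). That of Cul5 (0.07) was -0.070 with the GC and length correction and -0.011 to 0.17 with a library left out, the lowest without KO 3. The cause of these shifts was not tested. Depth is unknown, so low genes such as Asb9 and Asb17 are limited most.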

Other observations

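Cish, a SOCS box inhibitor of cytokine signalling and a target of STAT5, was among the most variable genes of the SOCS box list and was chosen after its values were seen. It measured 3.45, 32.9 and 27.3 TPM in gastrocnemius Ctrl 1, 2 and 3 and 5.24, 34.9 and 32.7 TPM in soleus Ctrl 1, 2 and 3. In KO it measured 4.54, 8.69 and 4.29 TPM in gastrocnemius and 2.45, 11.4 and 6.84 TPM in soleus. Ctrl 1 was thus low in both muscles and the other Ctrl libraries were above all KO libraries, while no label ties a gastrocnemius to a soleus library of equal number. The limma adjusted p was 0.268 in gastrocnemius and 0.609 in soleus.

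Among the 9 kelch-like adaptors in soleus, 4 had every KO library below every Ctrl library, beside 7.94% of all genes tested, and 1 had every KO library above, beside 8.9%. None of the 9 was called by limma. The list was chosen with earlier results of these data known, so nothing is read from these counts. Klhl40, the gene above, was at 83.5 TPM in KO 3 and 82.8 in Ctrl 3. Klhl34 measured 56.0, 53.0 and 50.7 TPM in Ctrl and 43.3, 46.0 and 18.3 in KO, the lowest in KO 3. Klhl30 measured 35.98, 33.8 and 38.0 TPM in Ctrl and 29.0, 27.0 and 17.9 in KO (limma adjusted p = 0.413), with the lowest value in KO 3. Kbtbd13 measured 7.56, 6.08 and 7.92 TPM in Ctrl and 5.04, 5.72 and 4.85 in KO (limma adjusted p = 0.414).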
